A study of Mus musculus with 6 samples.

Results

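Transcripts of 10 genes of the Polycomb and DNA methylation machinery were examined in regulatory T (Treg) cells from mice labelled as Gata3-deficient or Gata3-sufficient: Ezh2, Ezh1, Suz12, Eed and Jarid2 of Polycomb repressive complex PRC2, Bmi1, Ring1 and Rnf2 of PRC1, and the DNA methyltransferase genes Dnmt1 and Dnmt3a. They are 10 of 12394 genes measured, and all 10 were measured. Ezh2 was the member that differed between the groups. It was 1.44-fold higher in the arrays labelled Gata3-deficient, while the 9 other members, including its partners in the complex, did not pass the test. The genes themselves were proposed with results of these arrays known. Each gene's probe set was chosen by its mean log2 value over the 6 arrays, the highest among those annotated to that gene alone, so the means are not results. The closest choice was in Dnmt1, with means of 9.13 and 8.95.

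The cells were CD4+CD25+YFP+ Treg cells, which had been sorted out of spleen together with lymph nodes and were measured on Affymetrix arrays. There were 3 arrays for each group, and 3 mice in each group per the design text. The arrays labelled Gata3-deficient (titled GATA3KO) came from Gata3F/F Foxp3YFP-Cre mice, in which F by convention marks an allele flanked by loxP sites. The arrays labelled Gata3-sufficient (titled WT) came from Gata3F/+ Foxp3YFP-Cre mice. These controls are thus heterozygous for the floxed allele and carry the same Cre, so neither group is without Cre. The Cre is expressed from Foxp3, which limits deletion to cells that have expressed that gene. The sources used here do not give the age of the mice. Values are log2 intensities, and every difference below is the mean of the deficient arrays minus the mean of the sufficient arrays. Replicate numbers only name arrays.

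Polycomb proteins keep genes silent by modifying histones. PRC2 methylates histone H3 at lysine K27 through Ezh2 or Ezh1, with Suz12 and Eed needed for its activity and Jarid2 helping to bring it to its targets. PRC1 ubiquitinates histone H2A through Ring1 or Rnf2, with Bmi1 as a partner of the enzyme. Dnmt3a places methyl groups on DNA, and Dnmt1 copies them to the new strand when DNA is replicated. In T cells Ezh2 is known to increase on activation and cell division, and in Treg cells it is known to help keep the Foxp3-dependent programme in activated cells, whereas Ezh1 is better known from cells at rest.

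The arrays themselves carried 1 result that bears on the labels, though it may not be able to check them. The single Gata3 probe set read higher in the arrays labelled Gata3-deficient (9.84 ± 0.14 against 9.48 ± 0.08, SD, n = 3 each, limma adjusted p = 0.0387). It did not pass without the intensity trend (adjusted p = 0.15) or without sufficient replicate 2 or 3 or deficient replicate 1 or 2 (up to 0.182). The sources used here do not say which part of the gene is deleted, so whether this probe set can check the labels is unknown. Every direction below therefore rests on the labels. The T cell genes Cd3e, Cd3d and Cd4 and the Treg genes Il2ra, Ctla4, Ikzf2 and Tnfrsf18 were above the dim range (a mean below 5.25, the 40th percentile of all probe sets), while Foxp3 itself was dim in both groups (3.90 and 3.94). Of the 11 genes of this list 1 rose (Gata3) and 1 fell (limma; 4 and 1 at an unadjusted p under 0.05). The gene that fell was Nrp1, by 0.77 on the log2 scale (SE 0.07, limma adjusted p = 0.00152). Its other probe sets fell too, by 0.75 and 0.83, and its call held in 15 of 15 alternative fits. Over all genes 274 passed an adjusted p of 0.05 (limma), which is 2.21% of those tested, with 179 higher (1.44%) and 95 lower (0.766%). The median change over all genes was 0.0078. These p values set each difference against the spread between the 3 arrays of a group, which limma moderates with values of the other genes.

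Promoter windows are shown first for Ezh2 and for 3 members of its complex, because Ezh2 passed the test between the groups and these partners did not. The windows run from 250 bases before to 50 after an annotated gene start and were taken from RefSeq (GRCm38.p6). All 10 members had a window, 15 in all. Capitals mark matches on either strand to the E2F motif TTTNNCGC, bound by the E2F factors of S phase, and to TTTGAA, the core of the CHR (cell cycle homology region) of mitotic genes.
Ezh2, chr6:47594981-47595280, minus strand: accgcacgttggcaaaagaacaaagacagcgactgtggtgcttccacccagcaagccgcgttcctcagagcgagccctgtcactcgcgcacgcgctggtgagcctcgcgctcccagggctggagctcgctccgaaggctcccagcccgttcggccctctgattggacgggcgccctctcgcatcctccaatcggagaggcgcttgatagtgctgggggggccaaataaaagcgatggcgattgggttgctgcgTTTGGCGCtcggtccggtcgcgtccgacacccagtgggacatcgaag
Ezh1, chr11:101226414-101226713, minus strand: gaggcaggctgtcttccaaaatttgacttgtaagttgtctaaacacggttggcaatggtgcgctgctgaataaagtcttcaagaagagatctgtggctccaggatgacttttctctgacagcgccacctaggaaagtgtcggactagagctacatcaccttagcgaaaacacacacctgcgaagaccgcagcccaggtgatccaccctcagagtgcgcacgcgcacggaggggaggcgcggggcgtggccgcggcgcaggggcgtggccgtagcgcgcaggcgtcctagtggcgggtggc
Suz12, chr11:79992856-79993155, plus strand: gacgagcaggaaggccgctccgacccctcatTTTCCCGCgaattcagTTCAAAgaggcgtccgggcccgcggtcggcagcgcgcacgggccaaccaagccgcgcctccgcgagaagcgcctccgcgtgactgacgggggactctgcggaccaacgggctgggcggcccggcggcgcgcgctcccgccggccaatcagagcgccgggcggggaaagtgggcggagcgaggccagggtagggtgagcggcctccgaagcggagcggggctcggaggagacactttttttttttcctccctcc
Eed, chr7:89980927-89981226, minus strand: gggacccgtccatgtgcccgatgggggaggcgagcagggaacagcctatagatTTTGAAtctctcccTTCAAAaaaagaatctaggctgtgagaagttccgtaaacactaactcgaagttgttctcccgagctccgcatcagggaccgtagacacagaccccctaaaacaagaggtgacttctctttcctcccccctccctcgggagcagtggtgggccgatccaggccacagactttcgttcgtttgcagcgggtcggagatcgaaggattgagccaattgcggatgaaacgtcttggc

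The Ezh2 window held the E2F letters TTTGGCGC, with their first base at position 4 from the gene start, and 3 matches to CCAAT (not in capitals). The Suz12 window held TTTCCCGC, with its first base at position -219, and 1 match to the CHR core. The Ezh1 window held no match to either motif, and the Eed window held 2 matches to the CHR core. The E2F motif was present for 3 of 10 members (Ezh2, Suz12 and, in 1 of 3 windows, Dnmt1), against 5.93% of 27025 genes with a window. It was present for 44% of 25 DNA replication genes and for 7.69% of 26 mitosis genes. The CHR core was present for 3 of 10 members (Eed, Suz12 and Dnmt1), 73.1% of the mitosis genes and 20.2% of all genes. CCAAT was present for 5 of 10 members, with 1 match each in the Suz12 and Eed windows, and for 41.1% of all genes. The motif AGATAA, bound by Gata3 and its relatives, was in 0 of the 15 member windows and in 11.2% of all windows. Only these letters were searched, so other forms of the GATA site were not counted, such as TGATAG in the Ezh2 window. None of the capital stretches in the printed windows overlap each other or a CCAAT match. Thus the E2F letters were found at Ezh2, which passed the test, and also at Suz12 and Dnmt1, which did not.

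Ezh2, the main catalytic subunit of PRC2 in dividing cells, rose. Its single probe set read 9.003, 8.91 and 8.96 in sufficient replicates 1, 2 and 3, and 9.47, 9.43 and 9.54 in the deficient replicates. Every deficient array was above every sufficient array, and the gap between the groups was several times the spread within either. The log2 change was 0.52 ± 0.05 (SE, limma adjusted p = 0.00152), with a 95% interval from 0.41 to 0.64, between group means of 8.96 ± 0.05 and 9.48 ± 0.05 (SD, n = 3 each). The change ranked 94th from the top of 12394 genes, and its p ranked 11th. Its adjusted p stayed under the threshold in 15 of 15 alternative fits, with changes from 0.49 to 0.55 and adjusted p from 0.000368 to 0.0259. In sorted cells measured in bulk, more cells that express a gene and more RNA of it per cell cannot be told apart.

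The other catalytic subunit did not rise with it. Ezh1 read 9.09, 9.05 and 8.98 in the sufficient arrays and 8.70, 9.02 and 8.98 in the deficient arrays. The groups overlapped, and deficient replicate 1 was the low array. The change was -0.14 ± 0.08 (SE, limma adjusted p = 0.502), with a 95% interval from -0.32 to 0.04. Without deficient replicate 1 the change was -0.04 (limma adjusted p = 0.813). The second Ezh1 probe set had a change of -0.08.

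The core subunits without catalytic activity had small changes whose intervals lie below that of Ezh2. Suz12, which holds the complex together, read 10.22, 10.16 and 10.22 in the sufficient arrays and 10.27, 10.31 and 10.19 in the deficient arrays. Its change was 0.06 ± 0.05 (SE, limma adjusted p = 0.642; 95% interval -0.04 to 0.16). The other 5 Suz12 probe sets, 1 of them dim, had changes from -0.13 to 0.0066. Eed, which binds the methylated histone tail, read 10.03, 9.98 and 10.004 in the sufficient arrays and 9.88, 9.91 and 10.003 in the deficient arrays. Its change was -0.07 ± 0.05 (SE, limma adjusted p = 0.559; 95% interval -0.18 to 0.03), and its second, dim probe set had -0.14. For both genes the groups overlapped.

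Jarid2, an accessory subunit, was the member next to Ezh2 by p, and its probe sets disagreed. The brightest read 9.10, 8.98 and 9.02 in the sufficient arrays and 9.30, 9.22 and 9.14 in the deficient arrays. These values did not overlap, but the lowest deficient array lay only just above the highest sufficient one. The change was 0.19 ± 0.06 (SE, limma unadjusted p = 0.00774, adjusted p = 0.134; 95% interval 0.06 to 0.32). The other Jarid2 probe sets, at means of 8.22 and 8.13, had changes of 0.01 and 0.00038. With probe sets of the suffixes _x_at and _s_at left out, Ezh2 minus Jarid2 differed by 0.52 between the groups in place of 0.33. The size of the Jarid2 difference therefore depended on which probe set was read.

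**Figure D1:**
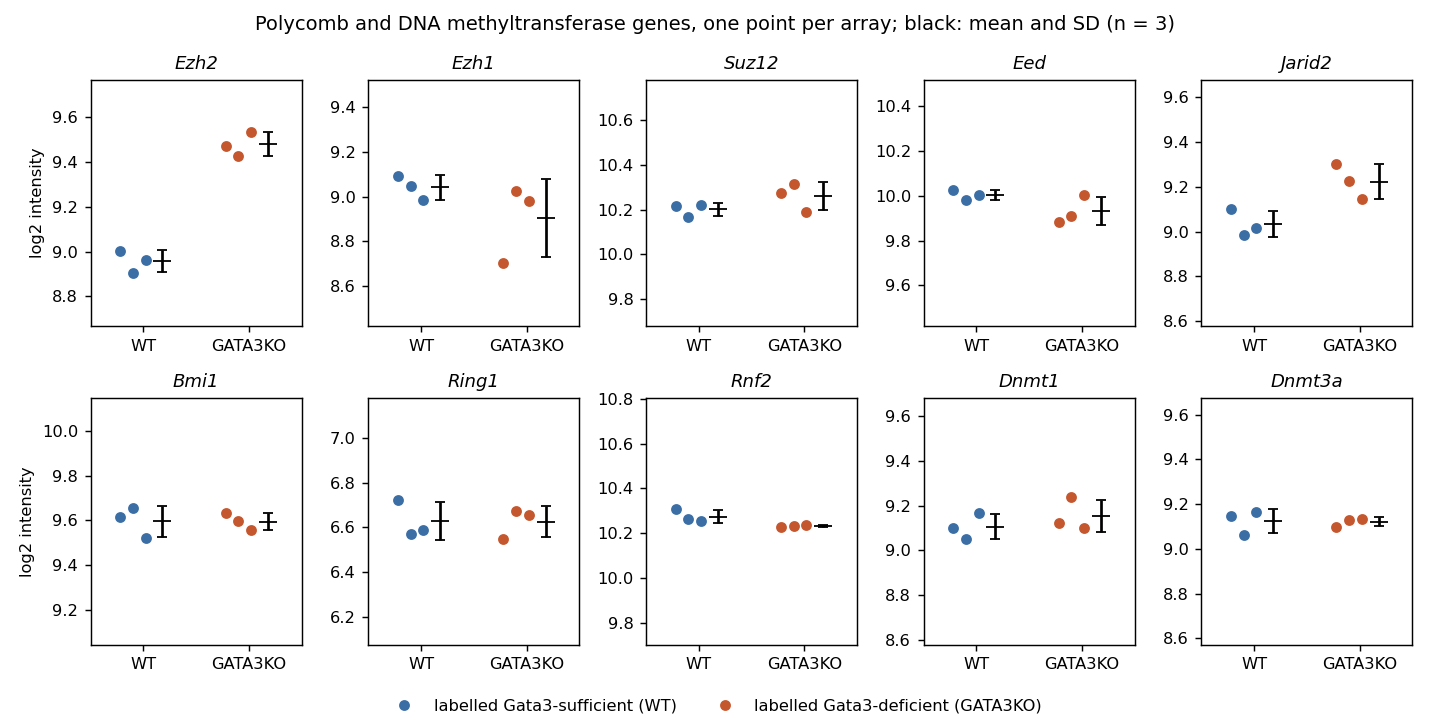
Log2 intensity of each of the 10 genes in the 3 arrays labelled Gata3-sufficient (WT) and the 3 labelled Gata3-deficient (GATA3KO), with the group mean and SD in black. Each panel spans the same range of log2 units, so heights of differences can be compared. Ezh2 has a wide gap between the groups, while the points of 7 genes overlap and those of Jarid2 and Rnf2 are separated by narrow gaps.

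The PRC1 members had changes close to 0. Bmi1, the partner that stimulates the ubiquitin ligase, read 9.62, 9.65 and 9.52 in the sufficient arrays and 9.63, 9.60 and 9.56 in the deficient arrays. Its change was -0.0022 ± 0.05 (SE, limma adjusted p = 0.993). Ring1, one of the alternative ligases, read 6.72, 6.57 and 6.59 against 6.55, 6.68 and 6.66, a change of -0.0024 ± 0.08 (SE, limma adjusted p = 0.995). Rnf2, the other ligase, read 10.31, 10.26 and 10.25 against 10.23, 10.23 and 10.23. The Rnf2 groups did not overlap, but the change was only -0.04 ± 0.04 (SE, limma adjusted p = 0.707). The second-brightest Rnf2 probe set, at a mean of 9.21, did not pass either, with a change of -0.14 ± 0.05 (SE, limma unadjusted p = 0.0289, adjusted p = 0.29 over all probe sets). The other 3 Rnf2 probe sets were dim, with changes from -0.19 to 0.06.

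The DNA methyltransferase genes did not differ detectably either. Dnmt1, whose product maintains methylation during replication, read 9.10, 9.05 and 9.16 in the sufficient arrays and 9.12, 9.24 and 9.10 in the deficient arrays. The change was 0.05 ± 0.06 (SE, limma adjusted p = 0.775; 95% interval -0.08 to 0.17), and its second probe set had -9.6e-05. Dnmt3a, the de novo enzyme, read 9.15, 9.06 and 9.16 against 9.10, 9.13 and 9.14. Its change was -0.0038 ± 0.05 (SE, limma adjusted p = 0.984), and its 4 other probe sets had changes from -0.15 to 0.12. The values of both genes overlapped between the groups.

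Counted over the members, 1 of 10 rose and 0 fell (limma, adjusted over all genes), and at an unadjusted p under 0.05 these counts were 2 and 0. Of all genes 1.44% rose and 0.766% fell, and at that unadjusted p the shares were 8.63% and 5.8% (14.4% in all). These shares also stand beside the counts of every other list in the text. The groups did not overlap for 3 of 10 members, with Ezh2 and Jarid2 above and Rnf2 below, against 19.8% of all genes, 11.3% above and 8.51% below. The members' median change was -0.0023, with 4 positive and 6 negative. The members had been proposed with results of these data known, so these counts describe the members and do not test them. The 19 further probe sets of 8 members, 5 of them dim, were not used to represent a gene. Of these 0 passed an adjusted p of 0.05 and 1 had an unadjusted p under 0.05 (limma), beside 1.69% and 13.6% of 20393 probe sets. The groups did not overlap for 1 of the 19, against 18.9% of those probe sets. Their changes ran from -0.19 to 0.12, with a median of -0.04. Replicate spread was small for these genes, with a median SD within groups of 0.05, against 0.1 over all genes. However, 0 of the 10 members were dim, against 4504 of all 12394 genes. Spread was not compared with that of genes of like brightness.

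**Figure D2:**
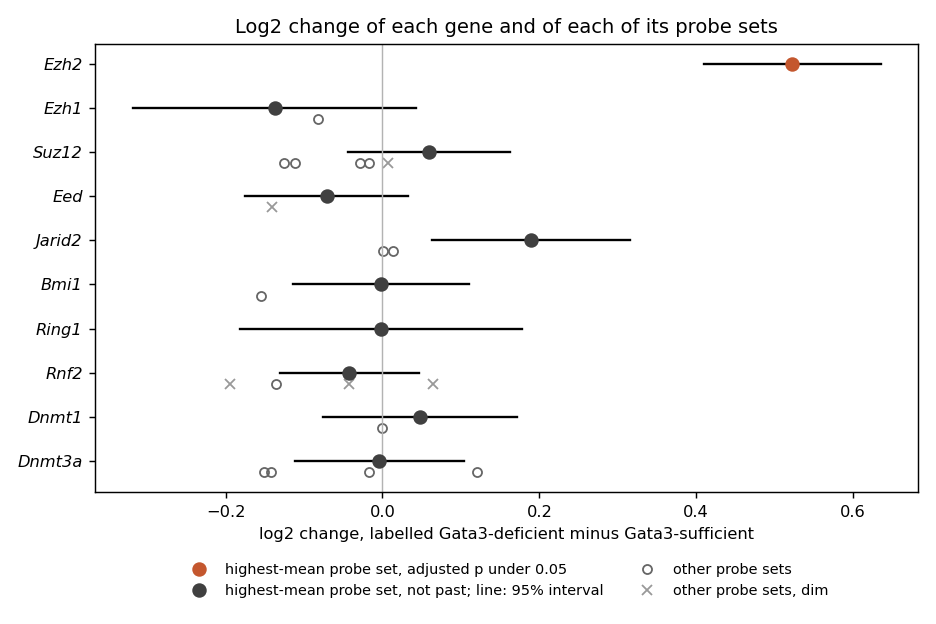
Log2 change (labelled Gata3-deficient minus Gata3-sufficient) of each gene's brightest probe set with its 95% interval, and of its other probe sets as open circles or, where dim, crosses. The interval of Ezh2 starts at 0.41, above the interval of every other member, the highest of which ends at 0.32.

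The difference between Ezh2 and each other member was tested within arrays, as the log2 difference between their values. In all 9 pairs every deficient array was above every sufficient array. Ezh2 minus Eed was -1.02, -1.07 and -1.04 in the sufficient arrays and -0.41, -0.48 and -0.47 in the deficient arrays, a difference between groups of 0.59 ± 0.03 (SE). Ezh2 minus Suz12 differed by 0.46 ± 0.07 (SE), Ezh2 minus Ezh1 by 0.66 ± 0.11 (SE) and Ezh2 minus Jarid2 by 0.33 ± 0.07 (SE). The differences for the PRC1 members ran from 0.52 (Bmi1) to 0.56 (Rnf2), and those for Dnmt1 and Dnmt3a were 0.48 and 0.53. Each pair had a two-sided exact permutation p of 0.1, also when adjusted over the 9 pairs, which is the smallest that 3 arrays against 3 can give. Ezh2 thus changed more than each partner by value, in a design that cannot bring this test below 0.05. Ezh2 had passed in these same arrays and the 9 others had not, so the separation of the pairs follows in part from that choice.

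Other subunits of PRC2 moved in different directions. Of 7 measured genes of this list 1 rose and 1 fell (limma), with a median change of -0.04. Aebp2, an accessory subunit that binds DNA and stimulates the enzyme, read 10.53, 10.43 and 10.55 in the sufficient arrays and 10.71, 10.70 and 10.73 in the deficient arrays. It rose by 0.21 ± 0.04 (SE, limma adjusted p = 0.0427), but its other probe set, at a mean of 7.13, had a change of -0.19. Phf1, a Polycomb-like subunit that directs the complex to chromatin, read 8.37, 8.31 and 8.30 against 7.92, 8.07 and 8.09. Phf1 fell by 0.30 on the log2 scale (SE 0.06, limma adjusted p = 0.0427). Both calls were lost without the intensity trend (adjusted p = 0.207 for Aebp2 and 0.135 for Phf1) and with any 1 array left out. That of Aebp2 was also lost with the mean of its probe sets (a change of 0.009), and that of Phf1 with the replicate number as a block (adjusted p = 0.0589). The histone-binding subunits Rbbp7 and Rbbp4 had changes of 0.19 (limma adjusted p = 0.0847) and -0.04, and neither passed.

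Among 12 further PRC1 genes 0 passed in limma, and the median was -0.03. An unadjusted p under 0.05 was found for 2 upward and 2 downward changes, beside 8.63% and 5.8% of all genes. Cbx2, a chromodomain subunit that reads the PRC2 mark, had the smallest p of the list and a change of -0.33 ± 0.09 (SE, limma adjusted p = 0.102). Kdm2b, which brings a variant PRC1 to CpG islands, had -0.15, and Phc2 and Cbx6 had 0.16 each. A list drawn up as opposing Polycomb silencing held Trithorax genes, the H3K27 demethylase gene Kdm6a, and Bap1 and Asxl1. Of its 11 measured genes 0 rose and 1 fell (limma; 0 and 2 at an unadjusted p under 0.05), and the median was -0.04. Kmt2a, a histone H3K4 methyltransferase gene, read 10.17, 10.26 and 10.24 in the sufficient arrays and 9.84, 9.97 and 9.91 in the deficient arrays. Kmt2a fell by 0.32 on the log2 scale (SE 0.05, limma adjusted p = 0.0131), and did not pass without sufficient replicate 2 (adjusted p = 0.0744) or without the intensity trend (0.0974). The H3K27 demethylase gene Kdm6a had a change of -0.06.

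In the DNA methylation pathway 1 cofactor of maintenance rose, while neither Dnmt1, Dnmt3a nor the further de novo enzyme passed. Of 5 measured genes besides Dnmt1 and Dnmt3a, 1 rose and 0 fell (limma; 2 and 1 at an unadjusted p under 0.05), and the median change was 0.18. Uhrf1, which brings Dnmt1 to hemimethylated DNA behind the replication fork, read 6.76, 6.58 and 7.03 in the sufficient arrays and 7.25, 7.28 and 7.43 in the deficient arrays. The groups did not overlap, though the sufficient arrays were widely spread. It rose by 0.53 ± 0.11 (SE, limma adjusted p = 0.0427), and its second, dim probe set had a change of 0.06. Uhrf1 did not pass without the intensity trend (adjusted p = 0.127), with the mean of its probe sets (a change of 0.30) or without any 1 array except sufficient replicate 3 (adjusted p up to 0.176). Cdca7 and Hells, parts of a remodelling complex needed for DNA methylation, had changes of 0.27 and 0.18, and Dnmt3b, a second de novo enzyme, -0.24, none past the threshold.

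Genes that remove or read DNA methylation each held 1 call. Of 5 measured genes of the demethylation list 1 rose and 0 fell (limma; 1 and 1 at an unadjusted p under 0.05), and the median was -0.05. That gene was Apobec1 (0.44 ± 0.09, SE, limma adjusted p = 0.0375), known mainly as an RNA-editing cytidine deaminase. It did not pass without the intensity trend (adjusted p = 0.122) or without any 1 array except sufficient replicate 1 (up to 0.173). Gadd45a, a stress-response gene linked to demethylation, had a change of -0.50 (limma adjusted p = 0.0525) and Tet1, which oxidises methylated cytosine, one of -0.18, and neither passed. Of 5 methyl-CpG readers 1 rose and 0 fell (limma; 1 and 0 at an unadjusted p under 0.05), and the median was -0.05. Mbd2, which recruits repressive complexes to methylated DNA, read 10.33, 10.34 and 10.44 in the sufficient arrays and 10.67, 10.62 and 10.66 in the deficient arrays. It rose by 0.28 ± 0.04 (SE, limma adjusted p = 0.0158), and its second probe set had a change of 0.24. Mbd2 did not pass without the intensity trend (adjusted p = 0.114) or without sufficient replicate 2 or deficient replicates 2 or 3 (up to 0.0868).

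**Figure D3:**
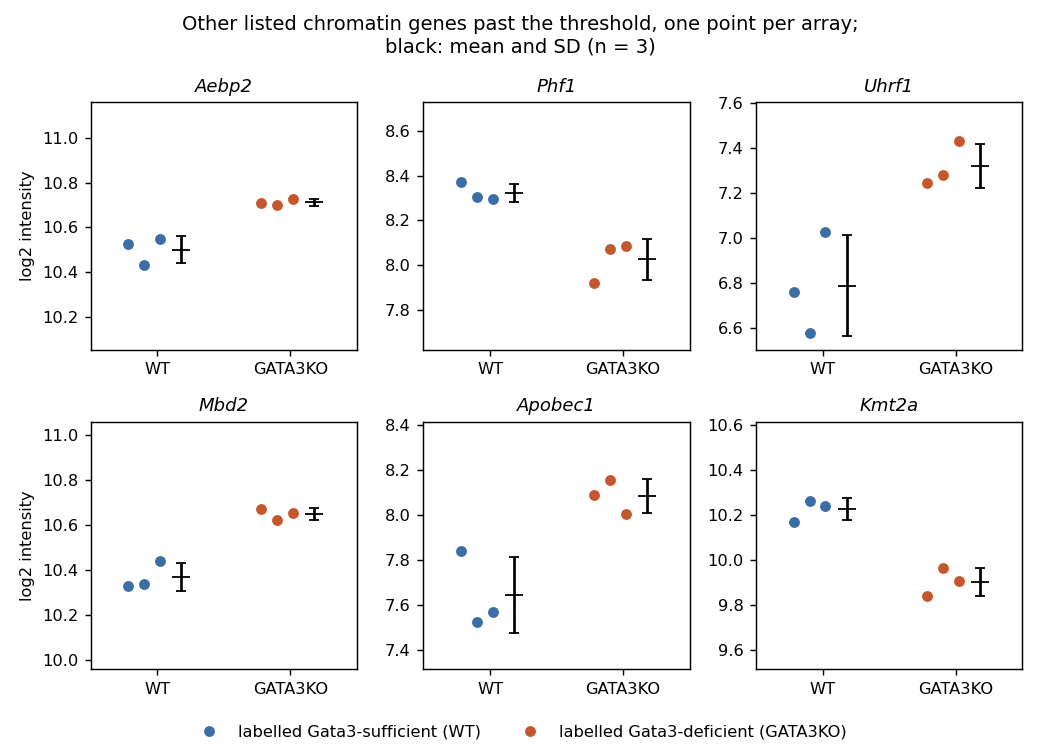
Log2 intensity by array of the 6 other listed genes of Polycomb, Trithorax and DNA methylation that passed the threshold, with group mean and SD in black and the same span of log2 units in each panel. Aebp2, Uhrf1, Mbd2 and Apobec1 were higher and Phf1 and Kmt2a lower in the 3 arrays labelled Gata3-deficient, with no overlap between groups.

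Ezh2 was then set beside genes of cell division. Of 28 measured mitosis genes 5 rose and 0 fell (limma; 15 and 1 at an unadjusted p under 0.05), 26 had a positive change, and the median was 0.28. Top2a (0.71 ± 0.09, SE), which untangles DNA, Mki67 (0.68 ± 0.12), the Ki-67 gene, Birc5 (0.79 ± 0.14) and Aurkb (0.52 ± 0.10, on a dim probe set), of the chromosomal passenger complex, and Ccnb2 (0.63 ± 0.12), a mitotic cyclin gene, rose (limma adjusted p from 0.00731 to 0.0375). Of 27 DNA replication genes 1 rose and 0 fell (8 and 0 at that unadjusted p), 24 had a positive change, and the median was 0.11. That gene was Rrm2, a subunit of ribonucleotide reductase (0.56 ± 0.09, SE, limma adjusted p = 0.0185). Over all genes 53% had a positive change, 2.21% passed, and at that unadjusted p 8.63% were higher and 5.8% lower. The change of Ezh2 lay above the upper quartile of both lists (0.44 and 0.15), with 5 mitosis genes and 1 replication gene at or above it. Among these 5 was Ube2c, which did not pass (0.69 ± 0.16, SE, limma adjusted p = 0.0577), while Aurkb lay just below Ezh2. By contrast, the 4 PRC2 members besides Ezh2 had a median of -0.0062 and a highest value of 0.19. The calls of Mki67, Birc5, Ccnb2, Aurkb and Rrm2, but not those of Ezh2 and Top2a, were lost without the intensity trend (adjusted p from 0.0629 to 0.1). Without deficient replicate 2 or 3 these 5 calls were lost too, and without sufficient replicate 2 all but that of Mki67 were lost (adjusted p up to 0.181 over the arrays left out). Ccnb2 and Aurkb were also lost without sufficient replicate 1, and Aurkb without deficient replicate 1 and with the replicate block (adjusted p = 0.0567). With the mean of all probe sets of a gene Aurkb (0.32) and Rrm2 (0.43) did not pass, nor did Rrm2 (0.52) with _x_at and _s_at probe sets left out.

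The same within-array difference was taken between Ezh2 and each of the 6 division genes that passed, a set chosen after their values were seen. In all 6 pairs the groups overlapped. Ezh2 minus Rrm2 was 2.02, 2.06 and 1.77 in the sufficient arrays and 1.99, 1.84 and 1.89 in the deficient arrays, a difference of -0.04 ± 0.10 (SE, exact permutation p = 0.8). Ezh2 minus Aurkb differed by 0.0064 ± 0.11 (SE), Ezh2 minus Ccnb2 by -0.11 ± 0.14 (SE) and Ezh2 minus Mki67 by -0.15 ± 0.14 (SE). Ezh2 minus Top2a differed by -0.19 ± 0.09 (SE) and Ezh2 minus Birc5 by -0.27 ± 0.16 (SE). Exact permutation p values ran from 0.2 to 1, and from 0.8 to 1 when adjusted over the 6 pairs. These genes and Ezh2 had all passed in the same direction, so close values follow in part from the choice, and a p of this size does not show that they changed alike.

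**Figure D4:**
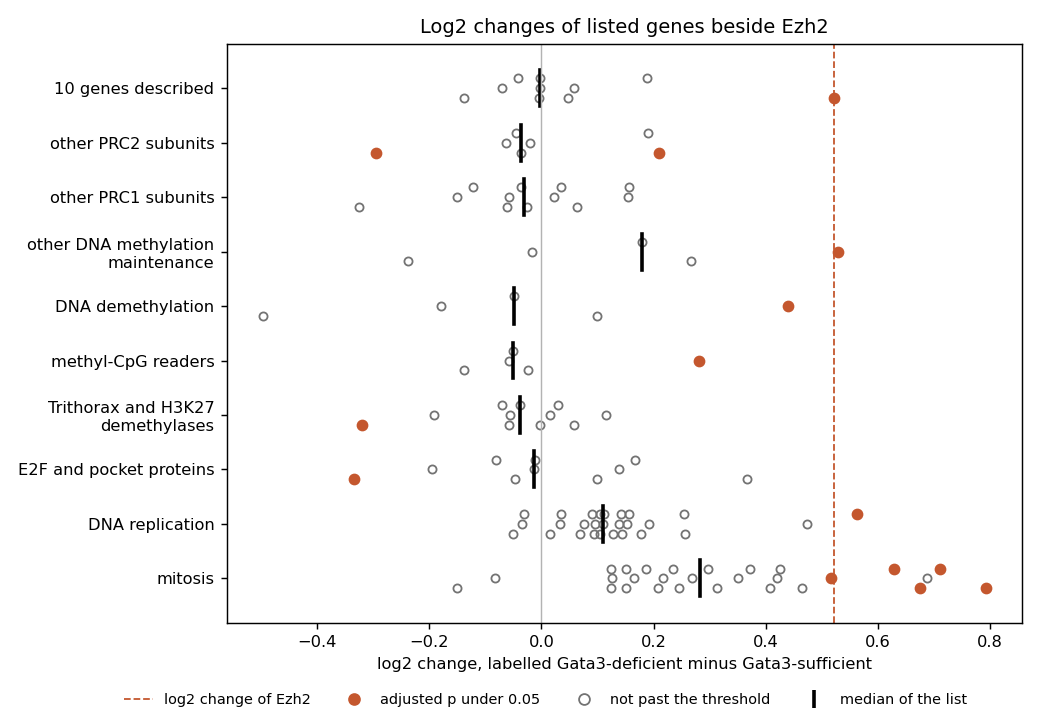
Log2 change of each measured gene in 10 lists, with genes past the threshold filled and the median of each list as a bar. The dashed line is the change of Ezh2, at 0.52. The other PRC2 genes lie to its left, between -0.30 and 0.21 in the list of other subunits, while 5 mitosis genes, 1 replication gene and Uhrf1 reach or pass it.

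Array by array, the order of Ezh2 and of the division genes was shared only in part. As deviations from the 6-array mean, the mitosis list averaged -0.17, -0.27 and -0.04 in sufficient replicates 1, 2 and 3 and 0.06, 0.18 and 0.24 in deficient replicates 1, 2 and 3. The replication list averaged -0.04, -0.13 and -0.03 against 0.03, 0.08 and 0.10. In both lists, as for Ezh2, sufficient replicate 2 was the lowest of the 6 arrays and deficient replicate 3 the highest. Deficient replicate 1 had the smallest shift of its group in both lists, whereas its Ezh2 value lay between those of the other deficient arrays. The Ezh2 values within a group lay close together (SD 0.05 in each), so their order within a group is uncertain. The mean of Ezh1, Suz12, Eed and Jarid2 was 0.03, -0.03 and -0.02 against -0.03, 0.04 and 0.0051, with the groups overlapping. No test was made of these list means.

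Among the marker lists of other cells, that of myeloid and neutrophil genes mostly read higher in the deficient arrays. In the list of myeloid and neutrophil genes the change was positive in 11 of 12, the median was 0.40, and 1 (Lyz1) passed the threshold. An unadjusted p under 0.05 was found for 6 upward and 0 downward changes among the 12, beside 8.63% and 5.8% of all genes, and in 5 of the 12 the deficient arrays all lay above the sufficient ones (11.3% of all genes). Lyz1 did not pass without the intensity trend (adjusted p = 0.151), with robust variances (0.229), with the mean of its probe sets (0.0568) or without sufficient replicate 2 or 3 or deficient replicate 2 or 3 (up to 0.16), and with _x_at and _s_at probe sets left out its change was -0.0092. The mean level of the list was 5.02 to 5.201 in the sufficient arrays and 5.29 to 6.01 in the deficient arrays, and 5 of the 12 genes, among them Cd14, Itgam and Mpo, were dim. In deficient replicate 1 the list was at 5.29, near the sufficient arrays, and Ezh2 was at 9.47, between the other deficient arrays (9.43 and 9.54). Without deficient replicate 3, the array with the highest myeloid level, the change of Ezh2 was 0.49 (limma adjusted p = 0.00722). Of 7 B cell markers 1 rose (Cd22) and 0 fell (2 and 0 by unadjusted p), with a list median of 0.0031, and of 6 NK and CD8 T cell and 5 plasma cell and erythroid markers 0 passed in limma, and in each of these lists 0 were higher and 1 was lower when p was left unadjusted at 0.05. Whether such cells have a part in the changes of Ezh2, of the division genes or of the other genes named was not tested.

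**Figure D5:**
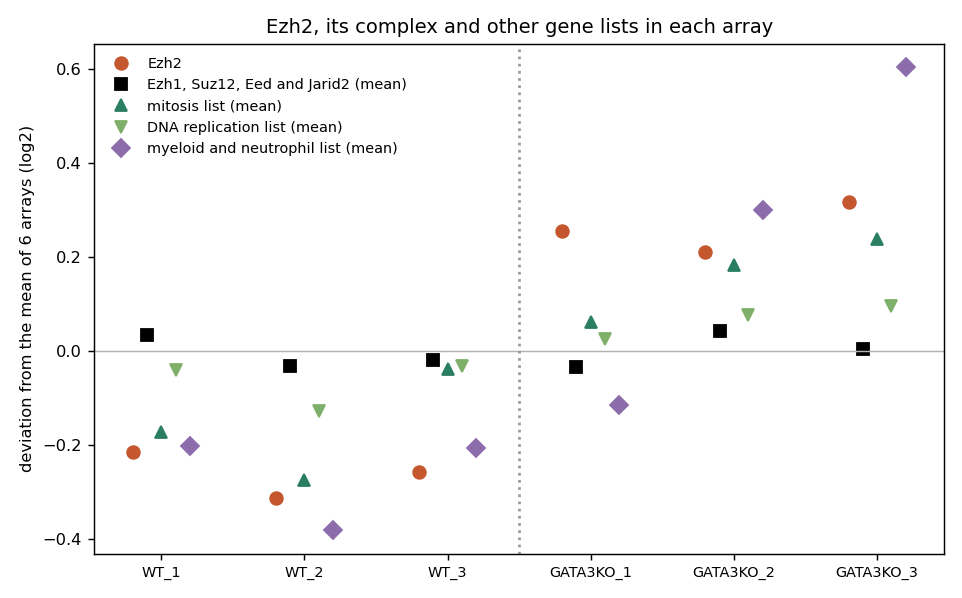
Deviation of Ezh2, of the mean of Ezh1, Suz12, Eed and Jarid2, and of the mitosis, DNA replication and myeloid lists from their 6-array means, by array. Ezh2 is between 0.21 and 0.32 in all 3 deficient arrays, the 4 PRC2 genes stay between -0.03 and 0.04 in all 6 arrays, and the myeloid list is at -0.11, 0.30 and 0.60 in deficient replicates 1, 2 and 3.

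The E2F family and its pocket-protein partners, which control genes of S phase, were also read. Of 10 measured genes 0 rose and 1 fell (limma; 1 and 2 at an unadjusted p under 0.05), and the median was -0.01. Rbl2, the gene of the pocket protein p130 found with E2F factors in resting cells, fell by 0.33 on the log2 scale (SE 0.05, limma adjusted p = 0.00967), from 9.22 ± 0.03 to 8.88 ± 0.04 (SD, n = 3 each). A second Rbl2 probe set fell too, by 0.49 on the log2 scale (limma adjusted p = 0.02 over all probe sets). Rbl2 did not pass without the intensity trend (adjusted p = 0.0714), without sufficient replicate 2 or without deficient replicate 2 (up to 0.061). The dim E2f8 had a change of 0.37 (limma adjusted p = 0.116).

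Genes known as targets of silencing by PRC2 or by DNA methylation were looked at next. Of 16 genes known to be held silent by PRC2 in T cells or other somatic cells, 1 rose and 2 fell (limma), beside 2.21% of all genes that passed. The median of these 16 genes was 0.03, and 6 were dim, as were 4504 of all 12394 genes. Ifng, the interferon gamma gene, fell by 0.98 on the log2 scale (SE 0.15, limma adjusted p = 0.0118), and Tbx21, which encodes T-bet, fell by 0.63 (SE 0.10, limma adjusted p = 0.0185). The one that rose was Gata3. Neither decrease passed without the intensity trend (adjusted p = 0.0674 and 0.0581) or without sufficient replicate 2, and that of Tbx21 was also lost without deficient replicate 2 (up to 0.105). The dim Cdkn2a, a classical Polycomb target, had a change of 0.16 ± 0.12 (SE). Of 9 genes known to be silenced by DNA methylation in some cells 0 passed in limma and 8 were dim. Foxp3 was among these 8, though the cells were sorted by YFP expressed with Cre from Foxp3. Its dim probe set therefore does not show silencing. When p was left unadjusted at 0.05, 1 of them was higher and 1 lower. The exception to dimness was Il2, with a change of 0.50 ± 0.12 (SE, limma adjusted p = 0.0818).

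The genes with profiles nearest to Ezh2 lay outside the fixed lists. Likeness was the root mean square distance between profiles over the 6 arrays, each centred on its own mean, among 7889 genes that were not dim. The nearest were Rnf19b (distance 0.037), Gstp3 (0.0501), Prdx4 (0.0531), Crybg3 (0.0645) and Cd74 (0.0688), with changes from 0.42 to 0.58. Rnf19b is a RING-type ubiquitin ligase gene, Prdx4 encodes a peroxiredoxin and Cd74 the invariant chain of MHC class II. Rrm2, at rank 45 (0.103), was the nearest division gene by this distance, and Uhrf1 was at rank 113 (0.125) and Top2a at rank 131 (0.131). The nearest of the 9 other members was Jarid2 (0.18), and the median distance was 0.27 both for these 9 and for all genes compared. The median was 0.19 for 18 mitosis genes and 0.22 for 24 replication genes. This distance includes the difference between the groups, so these medians in part restate the list changes given above. With profiles scaled to unit length the 5 nearest genes were Drc1, Rpia, Rnf19b, Psmd13 and Mfsd1, so only Rnf19b was among the nearest 5 by both measures. The order of the division genes also changed with the measure, since by unit length Top2a (rank 27) was nearer than Rrm2 (rank 139), and Uhrf1 was at rank 304.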

How the data were processed

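Total RNA (6 ug) was made into biotin-labelled cRNA for Affymetrix arrays, per the labels' protocols. The authors deposited 1 log2 intensity per probe set and array, and the submitters' processing notes name RMA without a version. That method subtracts background, equalises the distributions of the arrays and summarises probes, so a difference is relative to the other genes of an array. The log2 scale was read from the values. No scanner files were used, so signal over background was not read. Of 22690 probe sets 20393 were annotated to 1 gene (platform annotation), 691 to several and 1606 were not listed. Symbols were checked by Entrez identifier against a RefSeq table of GRCm38.p6 for 20364 of them, and 0 changed.

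The fit used limma 3.58.1 under R 4.3.3 (lmFit, eBayes with an intensity trend, two-sided) over 12394 genes, with Benjamini-Hochberg adjusted p values and a threshold of 0.05. Errors are SDs or limma's SEs, or, for within-array differences, SEs from the group SDs. The fit was tested on simulated data. Named were the members, Gata3, Foxp3, listed genes past the threshold, up to 4 per list with the smallest p and the 5 nearest profiles. Kdm6a, Cdkn2a, Ube2c and the genes named as dim or as cell identity checks were added. The members and lists were chosen with earlier results of these data known.

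The labels do not say that replicate numbers pair mice. Same-numbered arrays' deviations from their group means correlated at 0.04, -0.02 and 0.07, so no pairing was assumed. Figures were drawn with matplotlib 3.10.9.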

Additional observations from a re-analysis of the deposited data

How the results depend on the processing

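Each result was recomputed with a replicate block, without the intensity trend, with robust variances, without dim genes, after quantile normalization or median centring, with weighted arrays, with another probe set rule, at other thresholds and without each array. The count of members that rose was 1 and that fell 0 in all of them. All 9 differences between Ezh2 and another member kept their sign, from 0.27 (lowest, Jarid2) to 0.75 (highest, Ezh1), and with _x_at and _s_at probe sets left out that for Jarid2 was 0.52. The pairs were not run with the block, the variance settings or array weights. Over all genes 179 were higher and 95 lower. These counts were 31 and 23 without the intensity trend, 400 and 185 with array quality weights, 34 and 23 at an adjusted p of 0.01, and 343 and 182 at 0.1. With 1 array left out they ran from 35 to 165 higher and from 24 to 105 lower, and were 38 and 24 without sufficient replicate 2, 35 and 27 without deficient replicate 2 and 51 and 51 without deficient replicate 3, while without sufficient replicate 3 54 were lower. With the replicate block Ezh2 had a change of 0.52 (limma adjusted p = 0.00167), and 234 genes were higher and 134 lower. The members' changes that were not called changed sign in 2 of 15 settings for Suz12, 3 for Bmi1, 4 for Ring1 and 4 for Dnmt3a. Lyz1 turned to -0.0092 with _x_at and _s_at probe sets left out, on a dim probe set. The median change of all genes stayed between 0.0028 and 0.0114. List medians ran from 0.22 to 0.36 for mitosis and from 0.08 to 0.12 for replication. The sign of Ezh2 minus Top2a (-0.25 to 0.06), Aurkb (-0.07 to 0.20) and Rrm2 (-0.13 to 0.09), none of them called, varied, in alternatives added after seeing the data. The number of arrays and the absence of background readings limit what small changes can show.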
